A study of Homo sapiens with 6 samples.

Results

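The 10 genes examined here, HSPA5, HSP90B1, CALR, CANX, PDIA3, PDIA4, PDIA6, DNAJB9, SDF2L1 and HYOU1, encode chaperones and folding enzymes of the endoplasmic reticulum (ER). They were found by exact match of the gene name in the gene table, where they are 10 of 12180 listed protein-coding genes, and 34 of the 33090 listed transcripts belong to them. The question was whether their transcripts differed in cells made to express FGL1, a secreted protein of the fibrinogen family that folds in this compartment. RNA sequencing (RNA-seq) was performed on TE1, a human esophageal squamous cell carcinoma (ESCC) line, with 3 libraries in each of 2 groups. The FGL1-OE cells carried a lentiviral FGL1 construct, and the control cells, NC, carried a lentivirus with random nonsense sequence. The labels call the control genotype WT. Both were stable lines under puromycin selection. No source names more than 1 selected population per group, and the vector promoter is not given in the sources used here. Levels are FPKM (fragments scaled to transcript length and to the mapped fragments of the library). Comparisons between genes are approximate, since differences between libraries moved with GC content, and gene and transcript levels differed for some genes.

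Secreted and membrane proteins enter the ER unfolded and are folded there before they travel on. HSPA5 (BiP) binds exposed stretches of the chain and is driven by J-domain partners and nucleotide exchange factors, while calnexin and calreticulin hold glycoproteins and the protein disulfide isomerases form and rearrange disulfide bonds. When unfolded protein accumulates, ATF6, IRE1 with XBP1, and PERK with ATF4 raise the transcription of many of these genes, which is known as the unfolded protein response.

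The promoters of 9 of the 10 genes were read from RefSeq windows of 300 bases, 250 before and 50 after each transcription start (GRCh38.p14), to show the elements through which this response is known to act. PDIA3 was not in that table. Both strands were searched for the ER stress response element (ERSE: CCAAT, any 9 bases, CCACG), for ERSE-II (ATTGG, any base, CCACG) and for the core of the unfolded protein response element (UPRE, TGACGTGG). An ERSE was found for HSPA5, HSP90B1, CALR, CANX and PDIA6, and an ERSE-II for SDF2L1 and HYOU1. ERSE letters occurred in 0.0769% of all 35116 promoter windows, ERSE-II letters in 0.0541% and the UPRE core in 0.729%. The matched sites are printed 5′ to 3′ on the strand of the gene, with 15 bases on each side and the fixed letters of the element in capitals. Sites in reverse orientation therefore begin with CGTGG, and each position gives the distance upstream of the start.
HSPA5, chr9:125241376-125241424, minus strand, 66 to 48 bases upstream: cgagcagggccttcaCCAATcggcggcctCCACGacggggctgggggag
PDIA6, chr2:10812838-10812886, minus strand, 86 to 68 bases upstream: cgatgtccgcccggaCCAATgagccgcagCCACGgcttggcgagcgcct
CANX, chr5:179698763-179698811, plus strand, 151 to 133 bases upstream: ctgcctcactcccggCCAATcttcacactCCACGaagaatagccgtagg
HSP90B1, chr12:103930201-103930249, plus strand, 194 to 176 bases upstream: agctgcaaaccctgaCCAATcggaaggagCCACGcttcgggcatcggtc
HSP90B1, chr12:103930306-103930354, plus strand, reverse element, 89 to 71 bases upstream: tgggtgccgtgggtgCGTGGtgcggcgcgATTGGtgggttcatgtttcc
CALR, chr19:12938369-12938417, plus strand, reverse element, 225 to 207 bases upstream: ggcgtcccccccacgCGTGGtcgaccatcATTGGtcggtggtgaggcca
HYOU1, chr11:119057259-119057299, minus strand, reverse ERSE-II, 79 to 69 bases upstream: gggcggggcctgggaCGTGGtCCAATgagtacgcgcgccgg
HYOU1, chr11:119057365-119057405, minus strand, reverse ERSE-II, 185 to 175 bases upstream: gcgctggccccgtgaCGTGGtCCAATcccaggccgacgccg
SDF2L1, chr22:21642099-21642139, plus strand, reverse ERSE-II, 188 to 178 bases upstream: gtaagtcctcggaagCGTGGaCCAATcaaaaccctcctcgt

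The distal HYOU1 site also held the UPRE core, 188 to 181 bases upstream, which shares the letters CGTGG with the ERSE-II there. CANX had several annotated starts, and its site is given from 1 of them. In the windows of PDIA4 and DNAJB9 none of the 3 elements was found, which says only that these letters were not in those 300 bases. Of the 9 genes with a window, 7 carried an ERSE or ERSE-II in at least 1 of their windows, 14 in all. Counted per gene, ERSE letters occurred in 0.0916% of all 27305 genes and ERSE-II letters in 0.0696%. The set was chosen by hand, and many of its genes are known to be raised by the response that acts through these elements. The count therefore describes the set and is no test of what the genes share.

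FGL1 was listed at 0.0202, 0 and 0.106 FPKM in NC 1, NC 2 and NC 3 and at 33.5, 39.3 and 39.9 FPKM in FGL1-OE 1, FGL1-OE 2 and FGL1-OE 3. Its mean in FGL1-OE was 7.60% of the mean level of HSPA5 in the same libraries. NC 1 and NC 2 were the pair of libraries least alike, with a Pearson r of log2 levels over 12017 genes of 0.885, against 0.935 to 0.986 for the other pairs. All 10 chaperone genes passed the filter of a mean of 0.5 FPKM over the 6 libraries. In bulk RNA, fewer cells with a transcript and less of it per cell cannot be told apart. None of the 10 passed the test between the groups, made with limma on log2(FPKM + 1). The adjusted p was 1.00 for each. An adjusted p under 0.05 was found for 1 of 12017 genes tested (0.00832%), and that gene was FGL1 itself. At an unadjusted p under 0.05, 0 of the 10 and 242 of all genes (2.01%) passed, and the lowest unadjusted limma p of a chaperone gene was 0.382. The median log2 fold change (FGL1-OE minus NC, on log2(FPKM + 1)) was -0.07 over the 10, with 2 above 0 and 8 below, beside 0.02 over all genes, of which 53.7% were above 0. The FPKM of the 10 genes summed to 2111, 1714 and 2054 in NC 1, NC 2 and NC 3 and to 1886, 1857 and 1877 in FGL1-OE 1, FGL1-OE 2 and FGL1-OE 3. The sums of FGL1-OE lay inside the range of NC, and they made up 0.843% to 0.873% of all listed FPKM against 0.758% to 1.00% in NC.

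**Figure D1:**
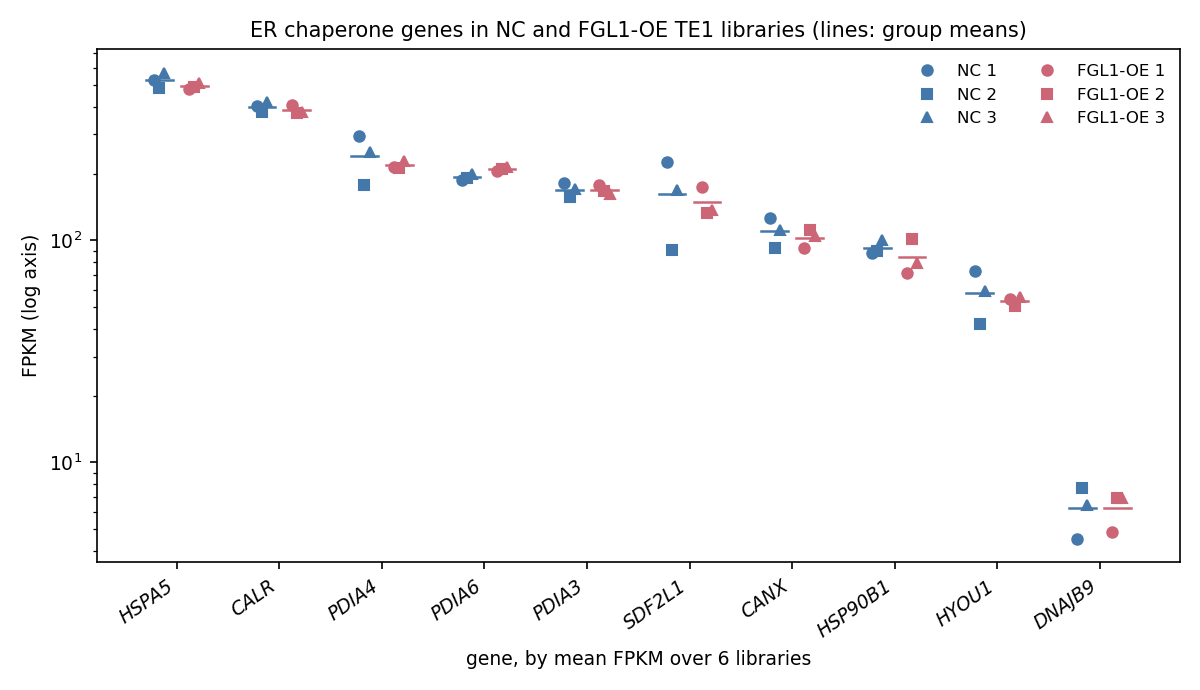
FPKM on a log axis of the 10 ER chaperone genes in each of the 3 NC libraries (blue) and 3 FGL1-OE libraries (red), ordered by mean level, with marker shape for the library number and lines for the group means. HSPA5 was at 483 to 570 FPKM and DNAJB9 at 4.53 to 7.66 FPKM, and PDIA6 was the 1 gene whose groups did not overlap.

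Among the general chaperones, HSPA5 was the most abundant of the 10 by gene FPKM. By transcript FPKM it was not, as the CALR transcripts together lay above HSPA5-201 in every library. CALR-201 alone was at 506, 530 and 496 FPKM in NC 2, FGL1-OE 1 and FGL1-OE 2. HSPA5-201 was at 488, 483 and 489 FPKM there, and it was above CALR-201 in NC 1, NC 3 and FGL1-OE 3. HSPA5 (GRCh37 chr9:127997132-128003609) stood at 527, 488 and 570 FPKM in NC 1, NC 2 and NC 3 and at 483, 489 and 511 FPKM in FGL1-OE 1, FGL1-OE 2 and FGL1-OE 3. The lowest and the highest library of NC bracketed all but FGL1-OE 1, and the groups overlapped. The group means were 528 ± 41.3 (SD, n = 3) and 495 ± 14.8 FPKM (SD, n = 3), a log2 fold change of -0.09 (SE 0.14, 95% interval -0.42 to 0.24). On a linear scale the interval ran from 0.747-fold to 1.18-fold, so a rise of HSPA5 above 1.18-fold lay outside it.

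HSP90B1 (GRP94), the ER paralogue of HSP90 that folds integrins and Toll-like receptors among other clients, was at 87.7, 89.9 and 100.4 FPKM in NC 1, NC 2 and NC 3. It was at 71.5, 101.3 and 78.9 FPKM in FGL1-OE 1, FGL1-OE 2 and FGL1-OE 3, which held both its lowest and its highest library. HSP90B1 was the only 1 of the 10 that varied more within FGL1-OE, by 1.42-fold from lowest to highest, than within NC. Its log2 fold change was -0.15 (SE 0.18, 95% interval -0.56 to 0.25), the lowest of the 10.

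Of the partners that act on HSPA5, HYOU1 (GRP170), a nucleotide exchange factor, stood at 73.0, 42.1 and 59.0 FPKM in NC 1, NC 2 and NC 3. In FGL1-OE 1, FGL1-OE 2 and FGL1-OE 3 it was at 54.2, 50.5 and 55.6 FPKM. The NC libraries lay on both sides of all 3 FGL1-OE libraries, and the log2 fold change of HYOU1 was -0.08 (SE 0.21, 95% interval -0.58 to 0.41). SDF2L1, which works in a complex with the J-domain protein DNAJB11 and keeps client proteins soluble, was at 226, 90.9 and 168 FPKM in NC 1, NC 2 and NC 3 and at 175, 133 and 137 FPKM in FGL1-OE 1, FGL1-OE 2 and FGL1-OE 3. It was the most variable of the 10 within NC, by 2.49-fold from lowest to highest against 1.31-fold within FGL1-OE. Its interval was accordingly the widest, with a log2 fold change of -0.04 (SE 0.32, 95% interval -0.79 to 0.71), or 0.580-fold to 1.64-fold. DNAJB9 (ERdj4), a J-domain partner of HSPA5 that also takes part in ER-associated degradation, was far less abundant than the other 9 genes. It was at 4.53, 7.66 and 6.42 FPKM in NC 1, NC 2 and NC 3 and at 4.85, 6.95 and 6.88 FPKM in FGL1-OE 1, FGL1-OE 2 and FGL1-OE 3. Here NC 2 was the highest library and NC 1 the lowest, the opposite of SDF2L1 and HYOU1. The group means of DNAJB9 were 6.20 ± 1.57 and 6.23 ± 1.19 FPKM (SD, n = 3 each), with a log2 fold change of 0.01 (SE 0.22, 95% interval -0.49 to 0.52).

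The lectin chaperones differed between the groups by less than the spread between libraries. CALR (calreticulin, GRCh37 chr19:13049392-13055303), the soluble lectin, was at 405, 378 and 419 FPKM in NC 1, NC 2 and NC 3 and at 407, 373 and 378 FPKM in FGL1-OE 1, FGL1-OE 2 and FGL1-OE 3. Its log2 fold change was -0.05 (SE 0.14, 95% interval -0.37 to 0.27). CANX (calnexin), the membrane-bound lectin, was at 126, 92.5 and 111 FPKM in NC 1, NC 2 and NC 3 and at 92.5, 111 and 105 FPKM in FGL1-OE 1, FGL1-OE 2 and FGL1-OE 3. The groups of both genes overlapped. CANX had a log2 fold change of -0.09 (SE 0.17, 95% interval -0.49 to 0.31).

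The disulfide isomerases held the 1 gene whose groups were apart. PDIA6 (P5), which binds HSPA5 and its clients, was at 187, 192 and 199 FPKM in NC 1, NC 2 and NC 3 and at 206, 210.2 and 214 FPKM in FGL1-OE 1, FGL1-OE 2 and FGL1-OE 3. Every FGL1-OE library was above every NC library. The means were 193 ± 6.21 and 210.2 ± 3.93 FPKM (SD, n = 3 each), a log2 fold change of 0.12 (SE 0.13, 95% interval -0.19 to 0.44), and the exact two-sided permutation p was 0.1, the lowest value that 3 against 3 can give. Groups without overlap were found for 7.15% of all genes, 4.09% higher and 3.06% lower in FGL1-OE, so 1 of 10 was close to the background. PDIA6 had an unadjusted limma p of 0.382. In an ordinary linear model, which takes only the gene's own spread, its unadjusted p was 0.0157, and 3.11% of all genes were under 0.05 by that model. Because its groups did not overlap, the log2 fold change of PDIA6 had to stay above 0 with each library left out in turn.

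PDIA3 (ERp57), which pairs with calnexin and calreticulin to act on glycoproteins, was at 181, 157 and 171 FPKM in NC 1, NC 2 and NC 3 and at 178, 168 and 163 FPKM in FGL1-OE 1, FGL1-OE 2 and FGL1-OE 3. Its group means were 169 ± 11.9 and 169 ± 7.76 FPKM (SD, n = 3 each), with a 95% interval of the log2 fold change from -0.33 to 0.33. PDIA4 (ERp72) was at 294, 177 and 249 FPKM in NC 1, NC 2 and NC 3 and at 214, 213 and 227 FPKM in FGL1-OE 1, FGL1-OE 2 and FGL1-OE 3. All 3 FGL1-OE values of PDIA4 lay between NC 2 and NC 3. Its log2 fold change was -0.11 (SE 0.21, 95% interval -0.59 to 0.37). GENCODE v29 names the pseudogenes PDIA3P1, PDIA3P2, HSP90B2P and HSP90B3P after PDIA3 and HSP90B1, and they are not among the listed protein-coding genes, so how reads shared with them were counted is uncertain.

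**Figure D2:**
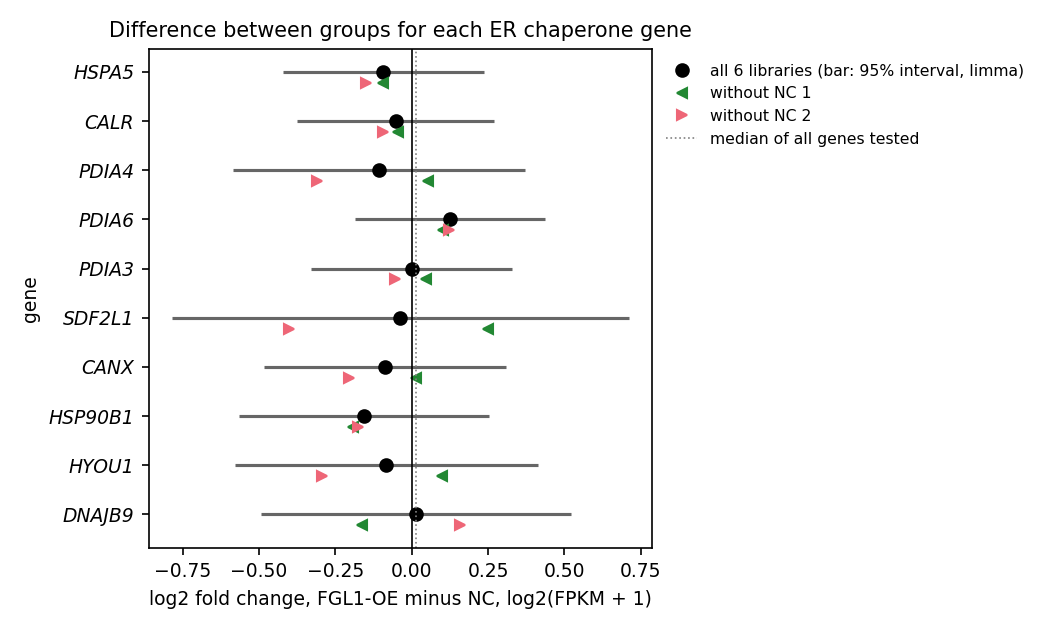
Log2 fold change (FGL1-OE minus NC, log2(FPKM + 1)) of each ER chaperone gene with its 95% interval from limma (black), and the same value without NC 1 (green) or without NC 2 (pink). Every interval includes 0, and the values without NC 1 and without NC 2 lie furthest apart for SDF2L1, at 0.25 and -0.40.

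By mean gene FPKM over the 6 libraries, the order was HSPA5 (512), CALR (393), PDIA4 (229), PDIA6 (201), PDIA3 (169), SDF2L1 (155), CANX (106), HSP90B1 (88.3), HYOU1 (55.7) and DNAJB9 (6.21). The ranges of gene FPKM of HSPA5 and CALR overlapped neither each other nor the next gene, and DNAJB9 was apart from HYOU1. The order of HSPA5 and CALR was reversed by summed transcript FPKM. PDIA6 lay above PDIA3 in every library, at 187 to 214 against 157 to 181 FPKM. By gene FPKM, CANX also lay above HSP90B1, and HSP90B1 above HYOU1, in every library, though their ranges over libraries overlapped. By summed transcript FPKM the order of HSP90B1 and HYOU1 changed between libraries and is not firm. HYOU1 was the higher in NC 1, where HYOU1-207 (109 FPKM) held 57.3% of it and HSP90B1-201 (109.5 FPKM) held 95.7% of HSP90B1. HSP90B1 was the higher in NC 2, where these transcripts were at 71.4 FPKM (63.1%) and 139.6 FPKM (97.5%). The order of PDIA4 and PDIA6, of PDIA3 and SDF2L1, and of SDF2L1 and CANX changed between libraries and is not firm. The 5 genes outside the 10 whose log2 level was most like that of HSPA5 over the 6 libraries, among 3991 with a mean of at least 10 FPKM, were TFDP1 (Pearson r = 0.989), C1R (0.968), ANXA9 (0.966), VAV2 (0.963) and ACO1 (0.961). Over 6 shared libraries of unknown depth, these are descriptions only.

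The libraries of NC differed among themselves more than those of FGL1-OE. The SD of log2 levels was larger in NC than in FGL1-OE for 9 of the 10, as for 84.1% of all genes. The median SD was 0.17 in NC and 0.07 in FGL1-OE over the 10, and 0.31 and 0.12 over all genes. Among genes with a mean of at least 50 FPKM it was 0.29 in NC and 0.11 in FGL1-OE over 709 genes, and 0.11 and 0.07 over the 9 chaperone genes at that level. For 5 of the 10, PDIA3, PDIA4, DNAJB9, SDF2L1 and HYOU1, all 3 FGL1-OE libraries lay inside the range of NC.

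NC 1 and NC 2 marked the ends of that range. On log2(FPKM + 1), NC 1 exceeded NC 2 by 1.31 for SDF2L1, 0.78 for HYOU1, 0.73 for PDIA4 and 0.44 for CANX. The difference was 0.20 for PDIA3, 0.11 for HSPA5, 0.10 for CALR and -0.04 for both HSP90B1 and PDIA6, and for DNAJB9 it was -0.65. SDF2L1 had the highest GC content of the 10 (65.5%) and DNAJB9 the lowest (40.4%), taken from the most abundant listed transcript. Over the 10 genes Spearman's rho between GC content and this difference was 0.62, and over 11775 genes tested it was 0.79. Of the 10, 9 lay above the median of all genes in their 5-point bin of GC content, and 6 lay above the middle 50% of genes there. The difference between these 2 libraries of 1 group therefore moved with GC content across the transcriptome.

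**Figure D3:**
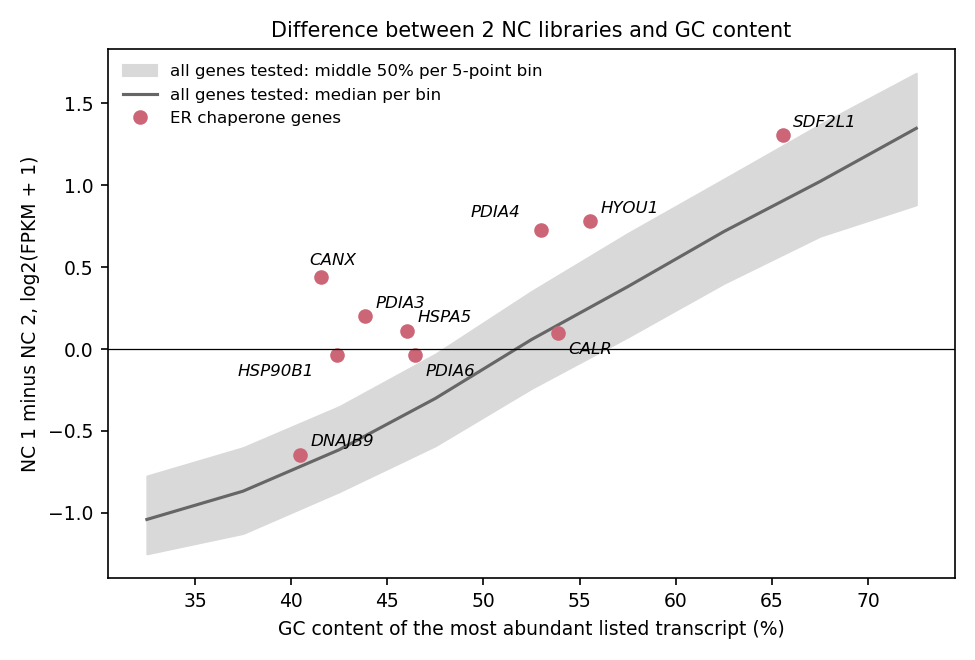
Difference between NC 1 and NC 2 in log2(FPKM + 1) against GC content in percent, with the median (line) and middle 50% (band) of all genes tested in 5-point bins and the ER chaperone genes in red. The median of all genes rises with GC content, from -1.04 in the lowest bin to 1.35 in the highest, and SDF2L1 and DNAJB9 stand at the 2 ends of the chaperone genes.

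With the trends on GC content and transcript length removed from every library, a refit chosen after the data had been seen, the SE of SDF2L1 fell from 0.32 to 0.12 and its log2 fold change was 0.08. The values of DNAJB9 (-0.05, SE 0.12), HYOU1 (-0.06, SE 0.13), PDIA4 (-0.10, SE 0.15), PDIA6 (0.08, SE 0.11) and HSPA5 (-0.14, SE 0.14) stayed within 1 SE of 0. CALR had -0.04 (SE 0.09). The SE rose for CANX, from 0.17 to 0.24 with a log2 fold change of -0.14, and for PDIA3, from 0.14 to 0.18 with -0.05. HSP90B1 had -0.22 (SE 0.18) and the lowest unadjusted limma p of the 10 in that refit, 0.255. Adjusted limma p ran from 0.877 to 0.960.

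Without NC 2 the median log2 fold change of the 10 genes was -0.16, and without NC 1 it was 0.03 with 6 genes above 0. PDIA4 then had -0.31 without NC 2 and 0.05 without NC 1, SDF2L1 -0.40 and 0.25, HYOU1 -0.29 and 0.10, CANX -0.20 and 0.02, PDIA3 -0.05 and 0.05, and DNAJB9 0.16 and -0.16. The direction of these 6 genes therefore changed with the NC library left out, and none of the 10 passed in either fit. PDIA3, SDF2L1 and DNAJB9 also changed sign without FGL1-OE 2 and without FGL1-OE 3. Without NC 2 an unadjusted limma p under 0.05 was reached by 21.8% of all genes and by 0 of the 10, where PDIA4 came nearest at 0.0544.

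Several of the 10 moved together from library to library. Of the 45 pairs, 26 had a positive Pearson r of log2 levels over the 6 libraries, with a median of 0.32, and 6 exceeded 0.8. PDIA4, SDF2L1, HYOU1 and PDIA3 gave most of these, with r = 0.989 between PDIA4 and HYOU1, 0.948 between SDF2L1 and HYOU1, 0.947 between PDIA3 and SDF2L1 and 0.913 between PDIA4 and SDF2L1. DNAJB9 went the other way, with r = -0.944 with PDIA3 and -0.887 with SDF2L1. All pairs share the same 6 libraries and their trend with GC content. The shares of such r among pairs of all genes were not computed, so the values are descriptions.

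No listed transcript of the 10 genes passed the test, and PDIA6 differed from the other 9 genes in which transcript carried its level. Of the 34 listed transcripts 33 passed the filter, and none had an adjusted limma p under 0.05, which 0.0165% of all 30330 tested transcripts had. None had an unadjusted limma p under 0.05 either, beside 3.53% of all, and the lowest was 0.0680. The groups did not overlap for 2 of the 33, PDIA6-201 and HSP90B1-210, beside 8.22% of all transcripts. The median log2 fold change was -0.06 over the 33 and 0.02 over all. HSPA5, DNAJB9, PDIA3 and SDF2L1 had 1 listed transcript each, with log2 fold changes of -0.09 for HSPA5-201, -0.001 for DNAJB9-201, 0.002 for PDIA3-201 and -0.04 for SDF2L1-201.

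PDIA6-201 (ENST00000272227) was at 328, 336 and 63.6 FPKM in NC 1, NC 2 and NC 3 and at 361, 368 and 375 FPKM in FGL1-OE 1, FGL1-OE 2 and FGL1-OE 3. PDIA6-207 (ENST00000540494) was at 0.134, 0.138 and 266 FPKM in NC 1, NC 2 and NC 3 and at 0.147, 0.151 and 0.179 FPKM in FGL1-OE 1, FGL1-OE 2 and FGL1-OE 3. The single library NC 3 thus held 80.7% of its summed PDIA6 transcript FPKM in PDIA6-207, and in the other 5 libraries PDIA6-201 held nearly all of it. The log2 fold change of PDIA6-201 was 0.94 with NC 3 and 0.15 without it (unadjusted limma p 0.205 with all 6 libraries), while the gene level of PDIA6 in NC 3, 199 FPKM, was next to those of NC 1 and NC 2.

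Both transcripts share 11 exons with the same ends, of 13 in PDIA6-201 and 14 in PDIA6-207, and PDIA6-207 has an added exon of 178 bases (GRCh38 chr2:10810243-10810420) in which its coding sequence starts. Of the words of 31 bases in PDIA6-201, 1.52% were in no other annotated PDIA6 transcript, and for PDIA6-207 the share was 0%. The 30 bases around the last junction before the common exons are printed 5′ to 3′, with 19 bases before the junction and 11 after it. The start codon is in capitals.
PDIA6-201: ATGgctctcctggtgctcggtctggtgagc
PDIA6-207: tctaattatATGatcttaggtctggtgagc

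The first 19 coding bases of PDIA6-201 are replaced by 10 in PDIA6-207, after which both continue in the same exon. Whether the RNA of NC 3 itself differed was not tested.

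HSP90B1-210, a minor transcript of HSP90B1, was at 3.14, 1.73 and 2.45 FPKM in NC 1, NC 2 and NC 3 and at 1.23, 0 and 1.57 FPKM in FGL1-OE 1, FGL1-OE 2 and FGL1-OE 3. All FGL1-OE libraries were below all NC libraries, with a log2 fold change of -0.92 (SE 0.42, unadjusted limma p 0.0680) and an exact permutation p of 0.1. It held at most 2.74% of the gene's transcript FPKM in any library, and the main transcript HSP90B1-201 had a log2 fold change of -0.06 (SE 0.27). HYOU1-219 did not pass the filter, and its groups did not overlap either, with 0.488 to 0.932 FPKM in NC and 0 to 0.444 FPKM in FGL1-OE.

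CALR varied more in its minor transcripts than at the gene level. CALR-206 was at 205, 59.7 and 140.1 FPKM in NC 1, NC 2 and NC 3 and at 96.7, 61.2 and 82.0 FPKM in FGL1-OE 1, FGL1-OE 2 and FGL1-OE 3, and its share of CALR ran from 10.4% to 29.2% in NC and from 10.8% to 15.3% in FGL1-OE. NC 1 was high and NC 2 low here too, and the groups overlapped. The main transcript CALR-201 had a log2 fold change of 0.02 (SE 0.21). HYOU1-217 was at 29.05, 4.42 and 11.7 FPKM in NC 1, NC 2 and NC 3 and at 12.4, 32.8 and 4.67 FPKM in FGL1-OE 1, FGL1-OE 2 and FGL1-OE 3, so that 1 library of each group was high. The main transcripts HYOU1-207 (-0.10, SE 0.26), PDIA4-201 (-0.11, SE 0.27) and CANX-201 (-0.06, SE 0.23) had log2 fold changes close to those of their genes, and CANX-201 held 47.7% to 52.2% of CANX in all 6 libraries.

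**Figure D4:**
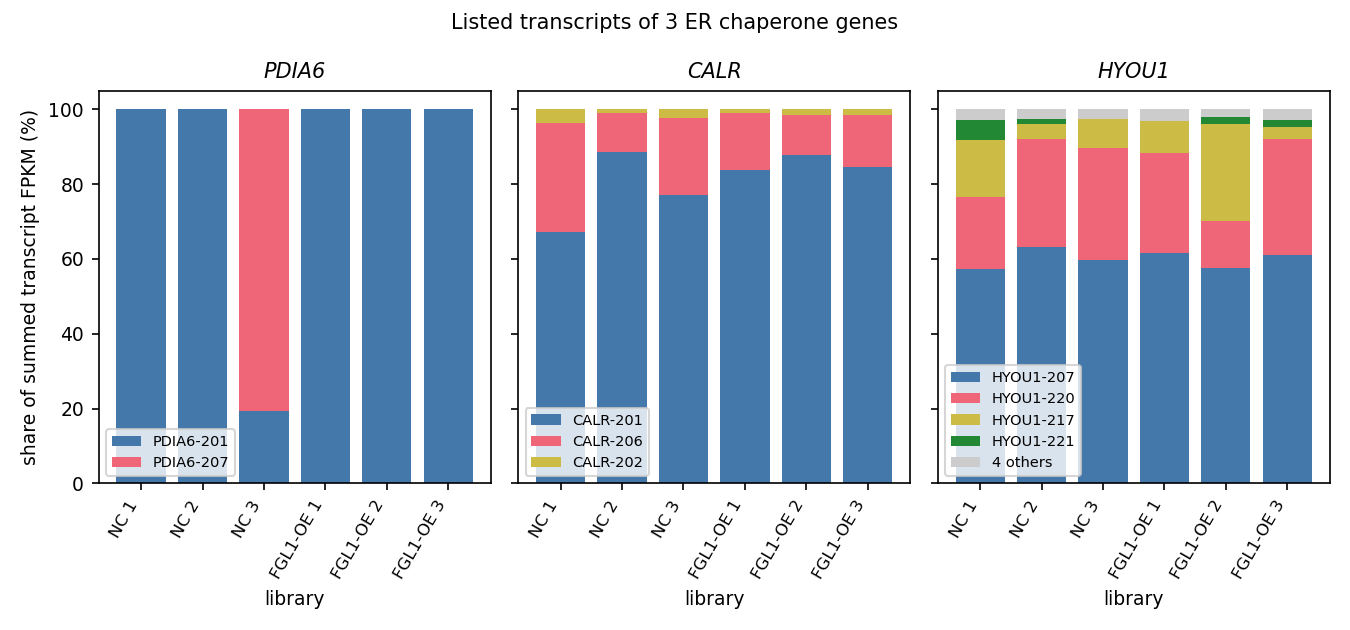
Share in percent of summed transcript FPKM held by each listed transcript of PDIA6, CALR and HYOU1 in the 6 libraries. PDIA6-207 holds 80.7% in NC 3 alone, CALR-206 runs from 10.4% to 29.2% in NC, and HYOU1-217 is largest in FGL1-OE 2.

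The rest of the folding and quality control machinery was read from 6 lists of 127 genes, of which 124 were tested. None had an adjusted or an unadjusted limma p under 0.05, the lowest unadjusted limma p was 0.0962, and the groups were apart for 4 of 124 (3.23%, beside 7.15% of all genes). Of the 124, 66.9% were above 0, with a median log2 fold change of 0.06. Among 11 J-domain co-chaperones and exchange factors of the ER the median was 0.09, with 9 above 0. Values ran from -0.06 for DNAJC18 to 0.37 for DNAJB12 (SE 0.19), a J-domain protein of the ER membrane. Among 11 genes of the calnexin cycle, glucosidases, cargo receptors and ERP29 the median was -0.02. Values ran from -0.30 for CLGN (calmegin), a calnexin paralogue, to 0.09 for MCFD2, a cargo receptor subunit. Among 24 other oxidoreductases and prolyl isomerases 12 were above 0, from -0.63 for TXNDC5 to 0.26 for TMX2. The value of TXNDC5, a disulfide isomerase, rested on FGL1-OE 3 at 5.40 FPKM against 48.2 and 50.8 FPKM in the other FGL1-OE libraries.

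Among 25 genes of ER-associated degradation (ERAD), which returns misfolded proteins to the proteasome, the median was 0.11 and 20 were above 0. That median was -0.005 without NC 1 and 0.25 without NC 2. The highest value was 0.33 (SE 0.35) for DERL1, a membrane channel subunit. DERL1 was at 3.27, 11.3 and 6.42 FPKM in NC 1, NC 2 and NC 3, around 8.07 to 8.24 FPKM in FGL1-OE. HERPUD1, an ERAD scaffold and a known target of the unfolded protein response, was at 4.10, 5.83 and 5.57 FPKM in NC 1, NC 2 and NC 3 and at 6.22, 7.45 and 6.28 FPKM in FGL1-OE 1, FGL1-OE 2 and FGL1-OE 3. All FGL1-OE libraries were above all NC libraries, with a log2 fold change of 0.32 (SE 0.17, unadjusted limma p 0.102, adjusted 1.00). NPLOC4 (0.11) was also apart and higher, and the ubiquitin ligase RNF5 (-0.15) apart and lower. Among 35 genes of the translocon, signal peptidase and oligosaccharyltransferase the median was 0.14 and 29 were above 0. Values ran from -0.25 for SEC61A1 (SE 0.33) to 0.41 for DAD1 (SE 0.43). DAD1 was at 22.1, 78.3 and 32.1 FPKM in NC 1, NC 2 and NC 3, around 42.3 to 67.6 FPKM in FGL1-OE. The translocon median was -0.009 without NC 1 and 0.31 without NC 2, and that of the co-chaperones was -0.14 and 0.24.

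Among 18 sensors and factors of the unfolded protein response the median was 0.03 and 10 were above 0, from -0.16 for ATF6B, whose groups were apart, to 0.28 for TRIB3. The transcription factors of its branches were chosen for naming after their values had been seen. XBP1 was at 40.1 to 51.7 FPKM in NC and 46.0 to 55.1 FPKM in FGL1-OE, with a log2 fold change of 0.06. ATF4 was at 182 to 244 FPKM in NC and 211 to 214 FPKM in FGL1-OE, and DDIT3 (CHOP) at 21.3 to 45.6 FPKM in NC and 26.1 to 34.1 FPKM in FGL1-OE, with log2 fold changes of -0.04 and 0.05. Gene levels say nothing of the splicing of XBP1 or the cleavage of ATF6, which were not analysed here.

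**Figure D5:**
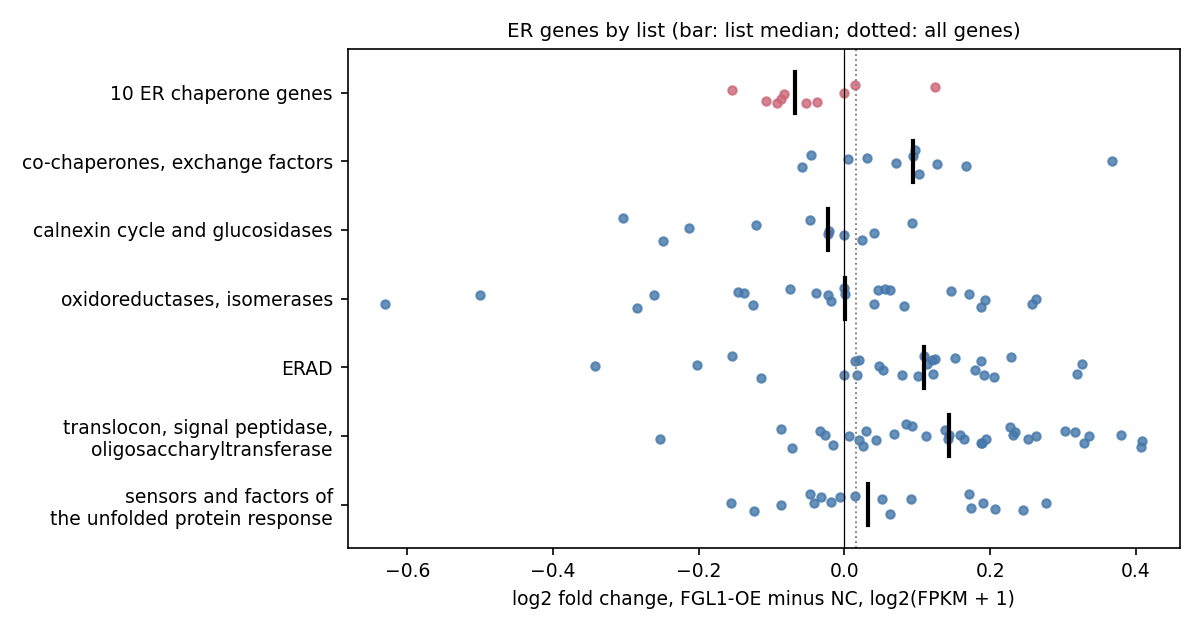
Log2 fold change (FGL1-OE minus NC, log2(FPKM + 1)) of the 10 ER chaperone genes (red) and of 124 genes in 6 other ER lists (blue), 1 point per gene, with list medians as bars and the median of all genes as a dotted line. The chaperone genes lie between -0.15 and 0.12, and list medians lie between -0.07 and 0.14.

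The labelled cell type was read from 10 squamous epithelial markers, of which 7 were tested, at a summed level of 322 to 355 FPKM in NC and 421 to 428 FPKM in FGL1-OE. KRT6A (log2 fold change 0.50, unadjusted limma p 0.0241, adjusted 1.00) and CDH1 (0.54, unadjusted limma p 0.0263, adjusted 1.00) were the 2 of the 7 with groups apart. Of all genes, 7.15% had groups apart and 2.01% an unadjusted limma p under 0.05. KRT5, DSG3, EPCAM and DSP were between -0.06 and 0.09, and KRT17 was also tested and is part of the sums. The part of these markers in the chaperone values was not tested. TP63, SOX2 and KRT14 were not among the genes tested. Of 4 fibroblast markers 2 were tested, with sums of 2.20 to 8.11 FPKM in NC and 3.21 to 5.94 FPKM in FGL1-OE. Of 4 leukocyte markers CD68 alone was tested, at 2.25 to 5.73 FPKM in NC and 3.20 to 5.40 FPKM in FGL1-OE, and of 3 endothelial markers none was. The listed FPKM summed to 210904 to 226307 per library.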

How the data were processed

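RNA-seq of TE1 cells was analysed for 3 NC and 3 FGL1-OE libraries, grouped by the genotype in their labels. Libraries were made from oligo(dT)-enriched mRNA with a stranded kit. The authors deposited FPKM values per library for genes and transcripts. The submitters' processing notes name StringTie and GRCh37. The aligner, versions and annotation are not given in the sources used here. The depth of the libraries is unknown, so no counting intervals are given, and gene values need not equal the sum of the listed transcript values (they do for HSPA5, not for CALR). Deposited fold changes, p-values and q-values of the authors' own comparison were not used.

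The test was limma 3.58.1 (R 4.3.3), fitted to log2(FPKM + 1) with the group as the only term, a pseudocount of 1, a filter at a mean of 0.5 FPKM and Benjamini-Hochberg adjustment over all genes or all transcripts (threshold 0.05). The scripts were tested on simulated data. A fold change on this scale understates that of low genes. For single genes, exact two-sided permutation tests were added. No source says that libraries came from separate cultures, so p-values measure only the spread between libraries, which may be technical.

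The 10 genes and the 6 lists of ER genes were chosen with earlier results of these data known. Named were the 10 genes, FGL1, the highest and lowest gene of each list, the main transcript of each gene and transcripts whose groups did not overlap, and the 5 genes most like HSPA5. A gene that this rule picks is not reported here. Other genes and transcripts named were chosen after their values were seen. Transcript sequence, exons, GC content and pseudogene names came from GENCODE v29 on GRCh38, promoters from RefSeq (GRCh38.p14), and coordinates of genes are GRCh37, as deposited. A GC content was found for 98.0% of genes tested. Alternatives were other pseudocounts, no filter, other scalings, the sum of transcripts, the replicate number as a block, each library left out and, chosen after the data had been seen, a GC and length correction and an ordinary linear model. Python 3.11.15 and pandas 2.3.3 were used for tables.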

Additional observations from a re-analysis of the deposited data

How the results depend on the processing

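None of the 10 ER chaperone genes passed the threshold in any of 140 alternative values (lowest adjusted limma p 0.235, without NC 2). HSPA5, HSP90B1, CALR and PDIA6 kept their direction in every alternative run, and 20 values of the other 6 genes changed sign. Leaving out each library in turn, the log2 fold change ran from -0.20 to 0.015 for CANX, -0.054 to 0.046 for PDIA3, -0.31 to 0.053 for PDIA4, -0.16 to 0.16 for DNAJB9, -0.40 to 0.25 for SDF2L1 and -0.29 to 0.098 for HYOU1, and the median of the 10 from -0.16 to 0.03. With quantile scaling PDIA3 was at 0.0081 and DNAJB9 at -0.011. With the sum of transcripts PDIA3 was at 0.0021 and DNAJB9 at -0.0013. With the GC and length trends removed DNAJB9 was at -0.053 and SDF2L1 at 0.077. Of 121 alternative values of the named transcripts 21 changed sign. Leaving out each library, CALR-201 ran from -0.018 to 0.053, CANX-201 from -0.15 to 0.012, DNAJB9-201 from -0.18 to 0.15, HSP90B1-201 from -0.22 to 0.087, HYOU1-207 from -0.26 to 0.046, PDIA3-201 from -0.052 to 0.049, PDIA4-201 from -0.31 to 0.053 and SDF2L1-201 from -0.40 to 0.25. With quantile scaling CALR-201 was at -0.027 and PDIA3-201 at -0.019, and with a common sum DNAJB9-201 was at 0.00076. The number of genes past the threshold, 1, was 2 in the ordinary linear model and 1 to 7 with a library left out, the 7 without NC 2. The 5 transcripts past the threshold were 29 with a pseudocount of 0.1, 3 in the ordinary linear model and 1 to 28 with a library left out, the 28 without NC 2. The causes were not tested.

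With the replicate number as a block, 1 gene and 0 transcripts passed, 298 genes had an unadjusted limma p under 0.05 instead of 242, and the median of the 10 was -0.07. The deviations of same-numbered libraries correlated at 0.345, 0.282 and -0.0614. FGL1-OE 1 and FGL1-OE 2 correlated best with the NC library of their own number, and FGL1-OE 3 with NC 2 (0.136). With 3 libraries in each group, these values cannot decide whether same-numbered libraries were paired.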
